A study of Homo sapiens with 12 samples.

Results

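Desmosomes are adhesive junctions that tie the keratin filaments of neighbouring epithelial cells together. Their transmembrane part is built from desmosomal cadherins, the desmogleins and desmocollins. The armadillo proteins plakoglobin and the plakophilins bind the cadherin tails, and desmoplakin links them to keratin. DSG2 and DSC2 are the cadherins of simple epithelia and are found widely, whereas DSG3, DSC3 and PKP1 are best known from basal and suprabasal layers of stratified squamous epithelium. The 10 genes described here are the desmogleins DSG2 and DSG3, the desmocollins DSC2 and DSC3, the plakophilins PKP1, PKP2 and PKP3, plakoglobin (JUP), desmoplakin (DSP) and the junctional membrane protein PERP. They are 10 of 28747 genes in the count table and were listed by family, around DSG3. The set was chosen by the measured levels of DSG3, detected in the knockdown cells, and of E-cadherin (CDH1), lower there. The values of DSG3 and CDH1 between the hairpins, and of CDH1 between the cultures, are therefore given as descriptions without a test.

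All 12 libraries came from DU145, a human prostate cancer cell line used as a model of castration-resistant disease. The groups were control cells (shCtrl) and knockdown cells carrying a stable lentiviral shRNA (shSigma), each in adherent culture in serum-containing medium and as tumor spheres, the non-adherent colonies that grow in serum-free, stem-selective medium, with 3 libraries per group. Which of the study's knockdown hairpins was sequenced is not given in the sources used here. No source used here says that the replicates came from separate transductions, so the effect of the hairpin and a difference between the transduced populations cannot be told apart. Total counts ranged from 16472722 to 26957777 per library. Levels are given in CPM, counts scaled to the TMM-adjusted library size. All 12 epithelial identity genes of a fixed list exceeded 1 CPM in every group, and the prostate-specific gene KLK3 and the prostate homeobox gene HOXB13 were at or near 0.

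DSG3 was the member that differed most between the hairpins. In adherent shCtrl cells no read was counted in any of the 3 libraries, and in shCtrl tumor spheres the counts were 2, 2 and 3. In shSigma cells the counts were 673, 597 and 779 in adherent culture and 543, 621 and 626 in tumor spheres. The corresponding levels were 33.4 ± 3.69 and 31.1 ± 3.27 CPM (SD, n = 3). Against a floor of 3 counts per control library, DSG3 was at least 278-fold higher in adherent shSigma cells and at least 189.7-fold higher in shSigma tumor spheres. The floor covers counting error only. In bulk libraries, more cells with the transcript and more transcript per cell cannot be told apart. CDH1, the classical cadherin named by the same rule, had 26.8 ± 0.0902 CPM in adherent shCtrl and 12 ± 1.72 CPM in adherent shSigma cells. In tumor spheres CDH1 had 727 ± 46.3 CPM in shCtrl and 27.8 ± 3.34 CPM in shSigma cells, a wider gap than in adherent culture.

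DSG3 lies on chromosome 18 (build hg38, chr18:31447741-31478702, plus strand), next to DSG2 (chr18:31498177-31549008, plus strand). The stretches just upstream of the annotated starts of DSG3, DSG2 and PKP1 are shown because DSG3 and PKP1 were near absent in shCtrl cells while DSG2 was the most abundant member per length. CG dinucleotides and the E-box CAGGTG, which reads CACCTG on the opposite strand, are in capitals. The sequences come from RefSeq promoters on GRCh38 (DSG3 chr18:31447491-31447740, DSG2 chr18:31497927-31498176 and PKP1 chr1:201283256-201283451, all plus strand).
DSG3: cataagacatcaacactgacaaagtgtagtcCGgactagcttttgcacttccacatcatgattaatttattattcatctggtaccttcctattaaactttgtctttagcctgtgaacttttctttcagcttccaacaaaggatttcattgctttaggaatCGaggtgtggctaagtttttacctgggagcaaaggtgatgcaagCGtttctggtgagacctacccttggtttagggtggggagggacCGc
DSG2: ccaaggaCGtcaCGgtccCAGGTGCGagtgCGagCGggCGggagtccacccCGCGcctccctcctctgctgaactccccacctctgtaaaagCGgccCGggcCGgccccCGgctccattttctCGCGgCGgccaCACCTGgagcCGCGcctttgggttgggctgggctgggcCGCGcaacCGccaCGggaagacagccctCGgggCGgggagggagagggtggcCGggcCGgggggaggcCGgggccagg
PKP1: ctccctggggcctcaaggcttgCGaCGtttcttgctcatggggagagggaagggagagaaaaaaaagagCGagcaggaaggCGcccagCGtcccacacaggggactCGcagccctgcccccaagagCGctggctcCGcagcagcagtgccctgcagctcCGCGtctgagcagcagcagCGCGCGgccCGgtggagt
The DSG3 stretch holds 4 CG dinucleotides in 250 bases and is 42.8% G or C. The DSG2 stretch holds 26 CG dinucleotides in the same length and is 75.2% G or C, and the PKP1 stretch holds 14 in 196 bases and is 66.8% G or C. Over all 35097 RefSeq promoter windows used, the medians were 11 CG dinucleotides and 58.0% G or C, and 17.8% of windows were poorer in G and C than that of DSG3. Of the 10 members, 8 had an entry. CAGGTG, searched on both strands, was found in 17.5% of all windows. It occurred 2 times each in the DSG2 and DSP windows and in 1 of the 2 JUP windows, once in 1 of the 2 DSC2 windows, and in none of the DSG3, PKP1, DSC3 and PERP windows. A match to these letters is a description of the sequence and not of a bound site.

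**Figure D1:**
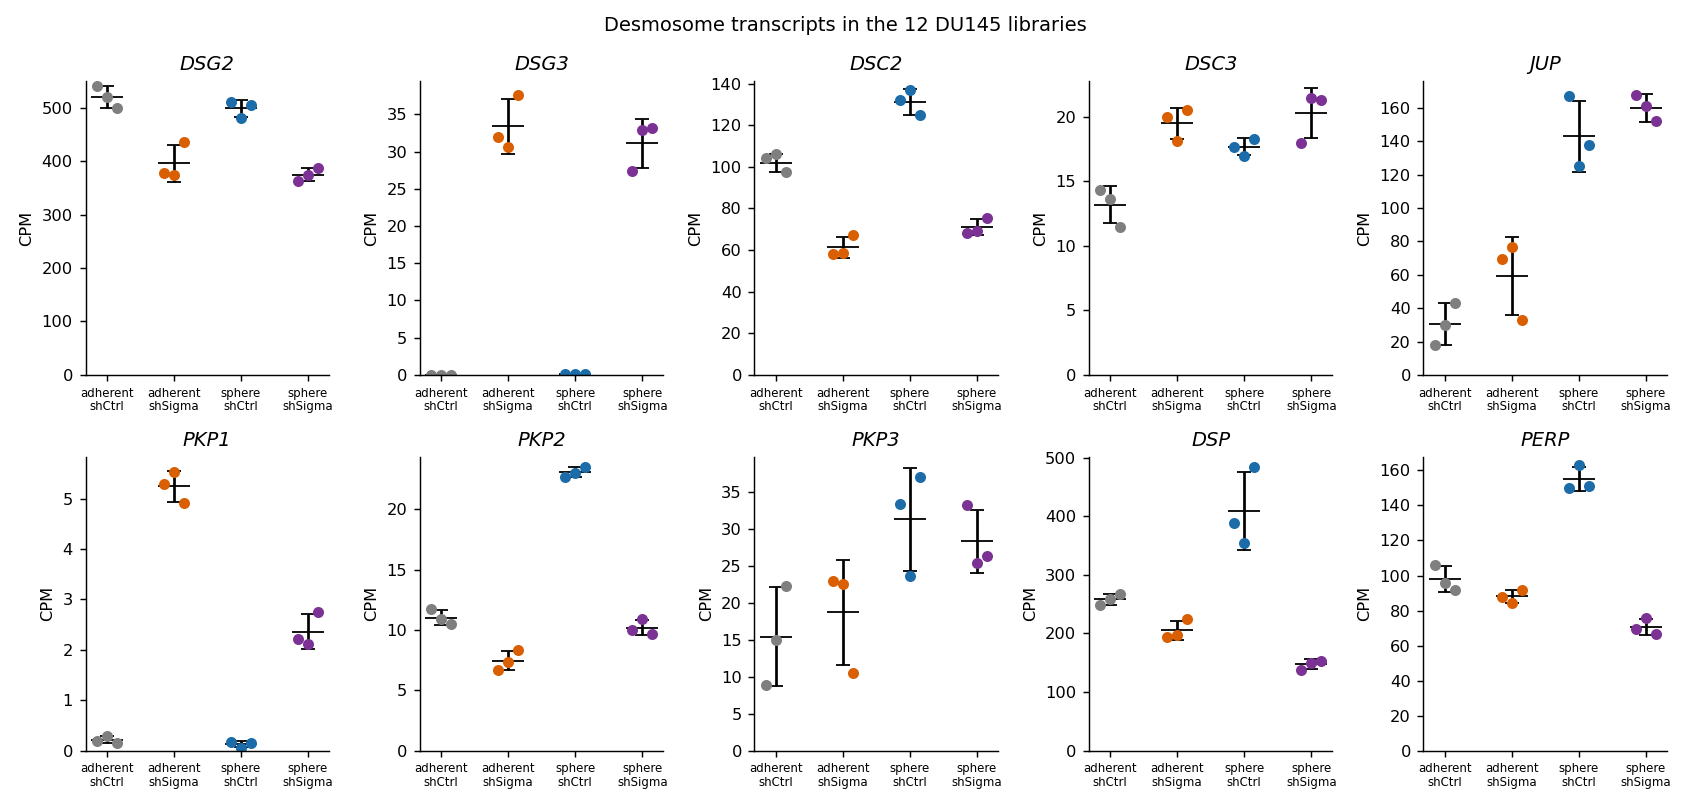
Levels in CPM (vertical axes from 0) of the 10 members in the 12 libraries, with 1 point per library, a horizontal bar for the mean of 3 and an error bar for the SD. DSG3 and PKP1 lie near 0 in both shCtrl groups and above 2 CPM in every shSigma library.

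Among the desmogleins, DSG2 moved opposite to DSG3. DSG2 is the broadly expressed desmoglein. It had 541, 521 and 500.1 CPM in adherent shCtrl cells and 378, 374 and 436 CPM in adherent shSigma cells. The groups did not overlap, which held for 57.9% of all genes tested in this comparison, and the log2 fold change was -0.46 (SE 0.0731, edgeR quasi-likelihood test, adjusted p = 0.00151). In tumor spheres DSG2 had 511, 481 and 506 CPM in shCtrl and 363, 375 and 387 CPM in shSigma cells, again without overlap, as for 66.8% of all genes (log2 fold change -0.42, SE 0.0530, adjusted p = 3.22e-05). DSG2 stayed the more abundant desmoglein in every library. On the scale of CPM per kb of exon, DSG3 made up 12.5 ± 0.294% of the desmoglein signal in adherent shSigma cells and 12.4 ± 0.877% in shSigma tumor spheres (SD, n = 3). With the length of the longest transcript instead of all exons, these shares were 7.93% and 7.81%. DSG1 had no count in any library, and DSG4 had at most 1.

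The desmocollins, the partner cadherins of the desmogleins, also went in opposite directions. DSC2 had 104, 106 and 97.5 CPM in adherent shCtrl cells and 58.2, 58.5 and 67.3 CPM in adherent shSigma cells (log2 fold change -0.81, SE 0.0738, adjusted p = 0.000119). In tumor spheres its levels were 132, 137 and 125 CPM in shCtrl and 68.3, 69.1 and 75.3 CPM in shSigma cells (log2 fold change -0.89, SE 0.0594, adjusted p = 1.6e-07). Every shSigma library was thus below every shCtrl library of its culture. DSC3, the desmocollin of stratified epithelia, had 14.3, 13.6 and 11.5 CPM in adherent shCtrl and 20, 18.1 and 20.5 CPM in adherent shSigma cells, where it rose (log2 fold change 0.50, SE 0.119, adjusted p = 0.00979). In tumor spheres DSC3 had 17.7, 17.0 and 18.3 CPM in shCtrl and 18, 21.5 and 21.3 CPM in shSigma cells. The sphere groups overlapped and the difference did not pass the test (log2 fold change 0.19, 95% interval -0.01 to 0.40, adjusted p = 0.0908). It was called higher without the first shSigma sphere library (0.28, adjusted p = 0.0208) and with an offset for the GC content of genes in each library (0.26, adjusted p = 0.0174). Per kb of exon, DSC3 made up 17.2 ± 1.11% of the desmocollin signal in adherent shCtrl and 34.1 ± 1.46% in adherent shSigma cells. The shares in tumor spheres were 17.9 ± 1.23% and 31.7 ± 1.79% (SD, n = 3), which are descriptions without a test.

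**Figure D2:**
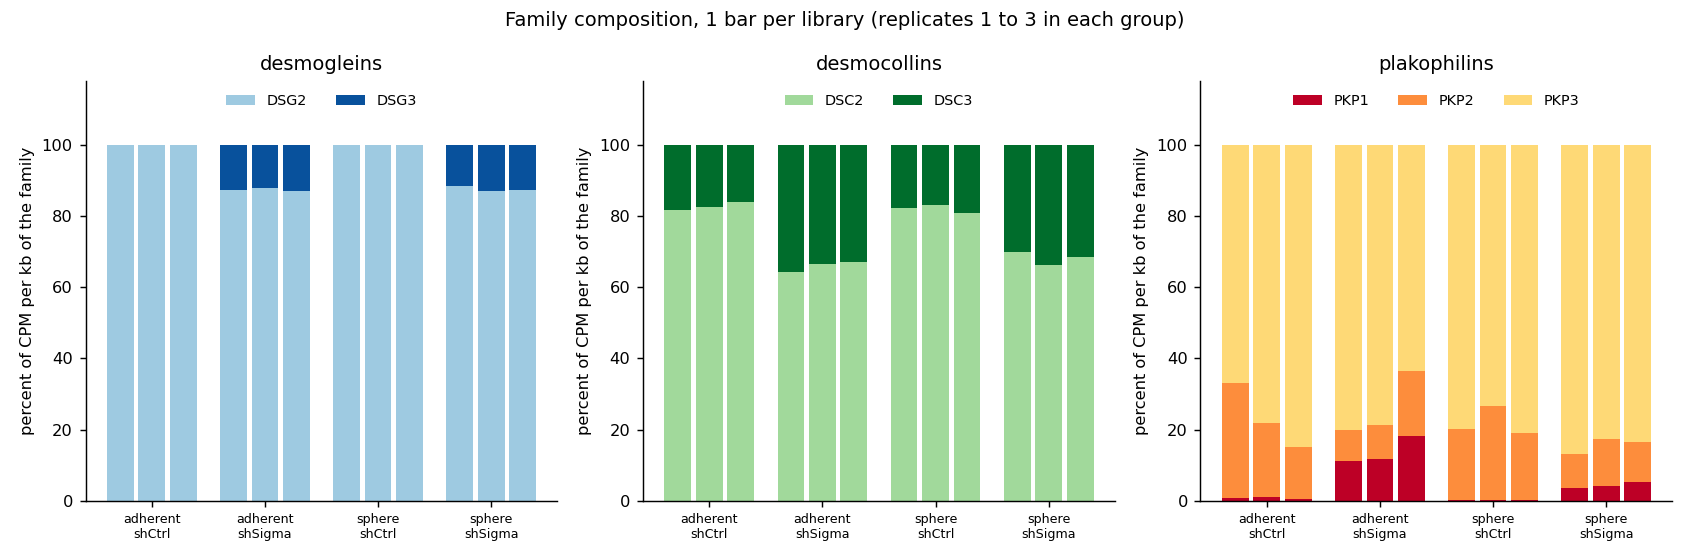
Share of each member in the summed CPM per kb of exon of its family (vertical axis, percent), with 1 bar per library and 3 bars per group. DSG3 takes 11.4 to 13% of the desmogleins in the shSigma libraries, and the share of DSC3 lies between 30.0 and 35.8% there against 16.1 to 19.2% in the shCtrl libraries.

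The plakophilins link cadherin tails to desmoplakin and differ in tissue use, PKP1 being the form of stratified epithelium and PKP2 that of simple epithelium and heart. PKP1 had only 5, 7 and 4 counts in adherent shCtrl cells and 111, 108 and 102 counts in adherent shSigma cells. Its level was 0.215 ± 0.0720 and 5.25 ± 0.307 CPM (SD, n = 3), a ratio of 24.4, and it rose (log2 fold change 4.52, SE 0.239, adjusted p = 1.29e-05). In tumor spheres the counts were 3, 1 and 3 in shCtrl and 44, 40 and 52 in shSigma cells. All control libraries were at the floor there, and PKP1 was at least 14.4-fold higher in shSigma spheres (adjusted p = 1.2e-06). PKP1 passed the filter on low counts only through its shSigma libraries in both cultures, so these p-values are given as descriptions. PKP2 went the other way. It had 11.7, 10.9 and 10.5 CPM in adherent shCtrl and 6.71, 7.32 and 8.30 CPM in adherent shSigma cells (log2 fold change -0.63, SE 0.117, adjusted p = 0.00329). In tumor spheres PKP2 had 22.7, 23.0 and 23.5 CPM in shCtrl and 9.98, 10.9 and 9.69 CPM in shSigma cells (log2 fold change -1.18, SE 0.0882, adjusted p = 4.07e-07). Neither culture showed overlap between the hairpins for PKP1 or PKP2. PKP3, found in most desmosome-bearing epithelia, had 8.91, 14.9 and 22.3 CPM in adherent shCtrl and 23.0, 22.5 and 10.5 CPM in adherent shSigma cells. Its sphere levels were 33.4, 23.6 and 37.0 CPM in shCtrl and 33.2, 25.3 and 26.3 CPM in shSigma cells. PKP3 overlapped between the hairpins in both cultures, with 95% intervals of the log2 fold change from -0.81 to 1.29 in adherent culture (adjusted p = 0.676) and from -0.53 to 0.22 in tumor spheres (adjusted p = 0.446). Without the second shCtrl sphere library PKP3 was called lower in shSigma spheres (-0.33, adjusted p = 0.0188). Per kb of exon PKP3 was the main plakophilin in every group, with 74.1 to 84.3% of the family on average, and PKP1 made up 13.7 ± 3.81% in adherent shSigma cells and 4.37 ± 0.899% in shSigma spheres.

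Plakoglobin (JUP), which serves desmosomes and adherens junctions alike, varied widely in adherent culture. Its levels were 18, 29.7 and 43.4 CPM in shCtrl and 69.3, 76.5 and 32.8 CPM in shSigma cells. The third shSigma library fell inside the shCtrl range, and the difference did not pass the test (log2 fold change 0.93, 95% interval -0.13 to 1.99, adjusted p = 0.124). Without that library the log2 fold change was 1.24 (adjusted p = 0.0278). In tumor spheres JUP had 167, 125 and 138 CPM in shCtrl and 168, 161 and 152 CPM in shSigma cells, which overlapped (log2 fold change 0.16, adjusted p = 0.183). Leaving out the first shCtrl sphere library gave a log2 fold change of 0.29 (adjusted p = 0.00311).

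The spread of JUP and PKP3 moved with the base composition of the libraries. The longest transcripts of JUP and PKP3 are 61.5% and 66.7% G or C, richer than those of 90.1% and 98.5% of the genes tested. Across 14060 genes, the deviation of a library from its group mean correlated with gene GC content with r = -0.684 in adherent shCtrl replicate 1 and r = 0.718 in replicate 3. In adherent shSigma cells r was 0.474, 0.629 and -0.686 in replicates 1 to 3. These correlations are across genes of 1 library, and genes are not independent. Within each adherent group JUP and PKP3 were lowest in the library with the most negative value. With an offset for GC content in each library, an alternative added after the data were seen, JUP rose in adherent culture (log2 fold change 0.64, adjusted p = 0.00736) and stood at -0.076 in tumor spheres (adjusted p = 0.270). PKP3 then stood at -0.19 in adherent culture (adjusted p = 0.0644) and fell in tumor spheres by 0.60 on the log2 scale (adjusted p = 5.01e-05). The direction or call of these 2 GC-rich members between the hairpins, and the call of DSC3 in spheres, thus depended on the treatment of GC content.

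**Figure D3:**
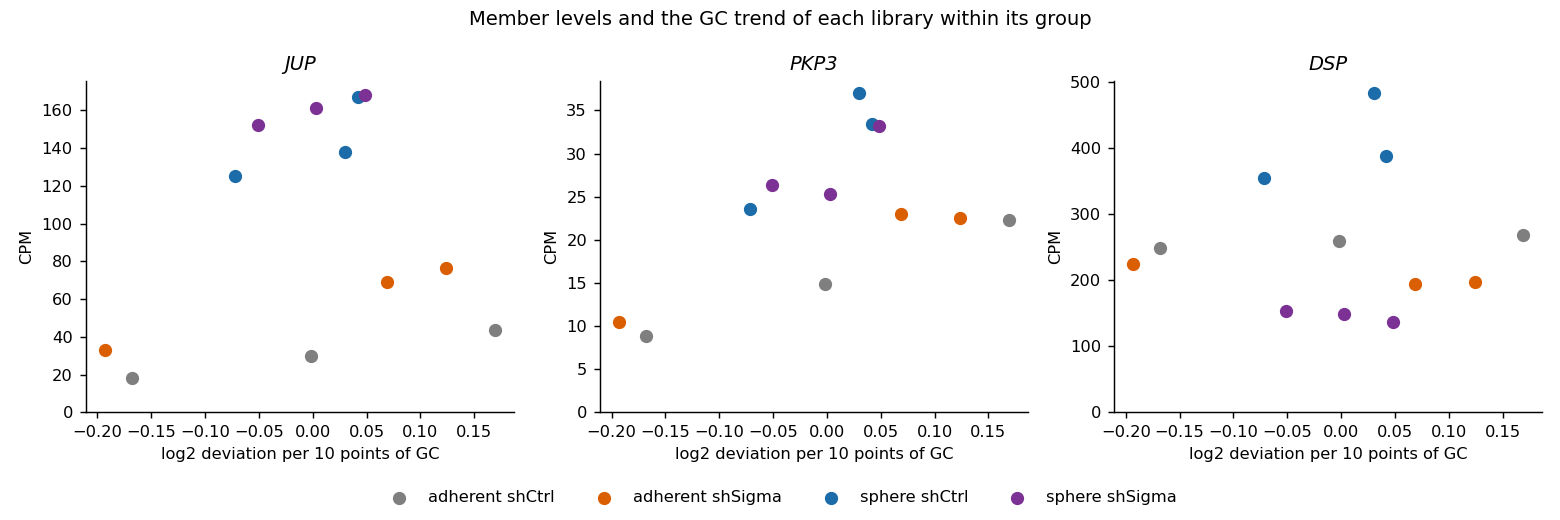
CPM of JUP, PKP3 and DSP (vertical axes from 0) against the slope of each library's log2 deviation from its group mean per 10 percentage points of gene GC content (horizontal axes), with 1 point per library. Within each adherent group JUP and PKP3 are lowest in 1 library, shCtrl replicate 1 (slope -0.168) and shSigma replicate 3 (slope -0.193), while the DSP groups stay apart.

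Desmoplakin (DSP), the plakin that anchors keratin filaments, was lower in shSigma cells of both cultures. It had 248, 259 and 268 CPM in adherent shCtrl and 194, 198 and 224 CPM in adherent shSigma cells (log2 fold change -0.40, SE 0.0599, adjusted p = 0.00123). Without the first adherent shSigma library this call was lost (log2 fold change -0.29, adjusted p = 0.0538). The gap was wider in tumor spheres, with 388, 355 and 484 CPM in shCtrl and 137, 149.5 and 153 CPM in shSigma cells (log2 fold change -1.49, SE 0.109, adjusted p = 2.54e-06). PERP, a tetraspan membrane protein of desmosomes and a target of p53-family factors, had 106, 95.6 and 92.0 CPM in adherent shCtrl and 87.8, 84.5 and 91.9 CPM in adherent shSigma cells. The lowest shCtrl and the highest shSigma library lay next to each other, and the difference did not pass the test (log2 fold change -0.22, 95% interval -0.41 to -0.031, adjusted p = 0.0547). PERP was called lower without the third shCtrl library (-0.28, adjusted p = 0.0177) and where at least 10 counts were required in every library (-0.22, adjusted p = 0.0466). In tumor spheres PERP fell from 150.0, 163 and 151 CPM to 69.4, 75.5 and 66.8 CPM (log2 fold change -1.14, SE 0.0623, adjusted p = 3.21e-08).

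Besides DSG3, 9 members remained, and each passed the filter on low counts. PKP1 passed it only through the shSigma libraries, so its calls between the hairpins are descriptions and not support. The counts and medians below still include PKP1. Between the hairpins, 6 of these 9 members were called in adherent cells, and for 7 the libraries of the groups did not overlap (57.9% of all genes). DSC3 and PKP1 rose, and DSG2, DSC2, PKP2 and DSP fell. Of all 13764 genes tested there, 50% were called, 22.3% higher and 27.7% lower. In tumor spheres 6 of 9 were called and 6 did not overlap (66.8% of all genes), with PKP1 higher and DSG2, DSC2, PKP2, DSP and PERP lower, against 61.1% of 13774 genes called (30.2% higher, 30.9% lower). Read against these shares, the number of called members alone does not set them apart from other genes. The median log2 fold change of the 9 was -0.22 in adherent cells and -0.42 in tumor spheres, beside -0.014 and 0.0015 over all genes tested.

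**Figure D4:**
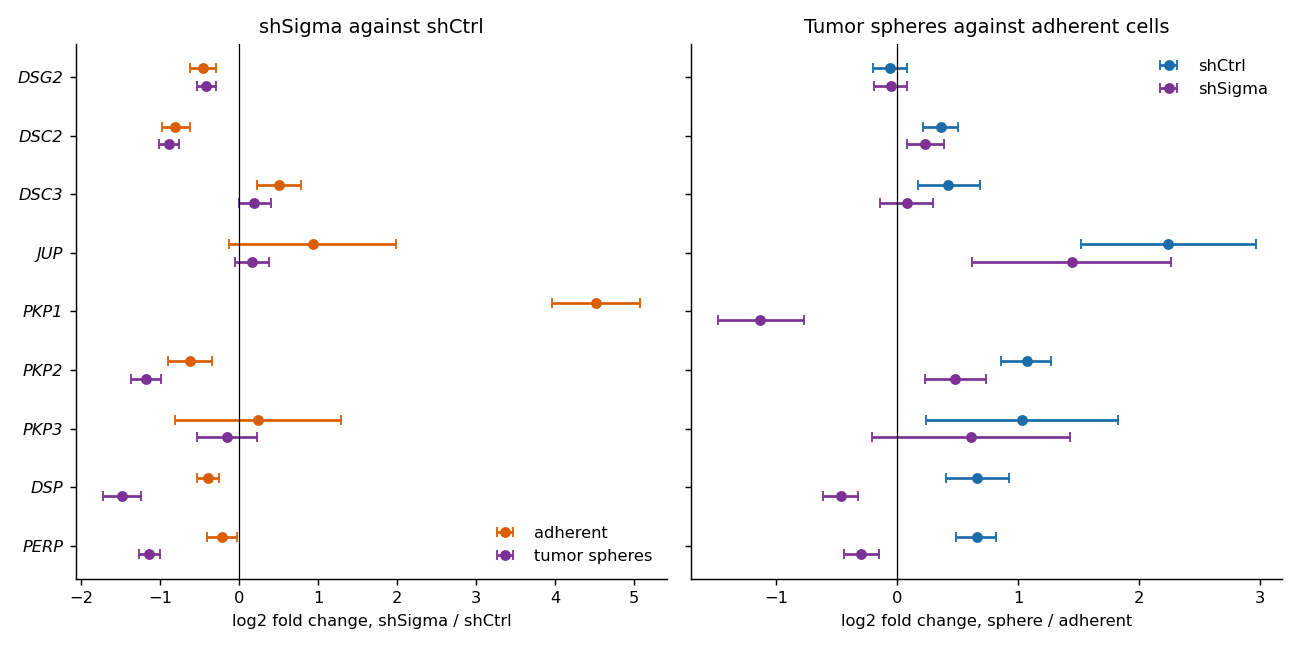
Log2 fold changes (horizontal axes) of 9 members with 95% intervals from the edgeR fits of 3 against 3 libraries, for shSigma against shCtrl in each culture (left) and tumor spheres against adherent cells with each hairpin (right). PKP1 stands at 4.52 in adherent cells; its tumor sphere value is not drawn because shCtrl spheres were at the floor of 3 counts, nor its culture value in shCtrl cells, which was not tested, and DSG3 is left out because it was chosen for the hairpin contrast.

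Whether the hairpin effect differed between the cultures was tested in 1 fit of all 12 libraries. Of the 9 members, 3 were called, all with a more negative effect in tumor spheres, where 28.4% of 14175 genes were called and 15.6% were called lower. The difference of the log2 fold changes, spheres minus adherent cells, was -1.15 for DSP (SE 0.141, adjusted p = 4.52e-05), -0.98 for PERP (SE 0.102, adjusted p = 1e-05) and -0.61 for PKP2 (SE 0.141, adjusted p = 0.00499). For DSG2 it was -0.019 (95% interval -0.23 to 0.19, adjusted p = 0.914), and for DSC2 -0.15 (95% interval -0.37 to 0.072, adjusted p = 0.311). DSC3, at -0.37, did not pass the test (95% interval -0.68 to -0.055, adjusted p = 0.0760), so its call in adherent culture and lack of one in spheres is not a shown difference between them. The intervals of JUP and PKP3 were wide, from -1.91 to 0.29 and from -1.61 to 0.75. With the GC offset DSC2, DSC3, PKP3 and JUP were called as well, all more negative in spheres, and the count was 7.

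Growth as tumor spheres went with higher desmosome transcripts in shCtrl cells. Of the 10 members, 8 passed the filter, since DSG3 and PKP1 were too low in both groups, and 7 of the 10 were called, all higher in spheres. Over the table, 53.7% of 13800 genes were called and 27.4% were called higher. For 8 of the 10 the libraries did not overlap (62.7% of all genes), DSG3 among them with 0 against 2 to 3 counts. JUP rose from 30.4 ± 12.7 to 143 ± 21.2 CPM (SD, n = 3; log2 fold change 2.24, SE 0.303, adjusted p = 0.000966). PKP2 rose from 11 ± 0.620 to 23.1 ± 0.413 CPM (log2 fold change 1.07, SE 0.0896, adjusted p = 4.36e-05). DSP and PERP each had a log2 fold change of 0.66, with adjusted p = 0.00188 and 0.000175. DSC2 (0.36, adjusted p = 0.00203) and DSC3 (0.42, adjusted p = 0.0124) rose less on the log2 scale. PKP3 was called at 1.03 (adjusted p = 0.0363), but not with the GC offset, where it stood at 0.15 (adjusted p = 0.225). DSC3 and PKP3 were not called without the first or the third sphere library, which left 5 calls, and PKP3 was not called without the second adherent library. DSG2 was the exception among the tested members, at -0.061 (95% interval -0.20 to 0.08, adjusted p = 0.425). CDH1 had 26.8 CPM in adherent and 727 CPM in sphere shCtrl cells, and 12 and 27.8 CPM in the corresponding shSigma cells. These CDH1 values are given without a test, since the choice of the set used the same libraries.

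The same culture change had mixed directions in shSigma cells, where 6 of 10 members were called against 47.1% of 13622 genes (21.9% higher, 25.2% lower) and 7 did not overlap (60.8% of all genes). JUP rose from 59.5 ± 23.4 to 160.3 ± 8.36 CPM (log2 fold change 1.44, SE 0.329, adjusted p = 0.0162), PKP2 rose by 0.48 (adjusted p = 0.00863) and DSC2 by 0.23 (adjusted p = 0.0212) on the log2 scale. PKP1 fell by 1.13 (SE 0.154, adjusted p = 0.000826), DSP by 0.46 (adjusted p = 0.000839) and PERP by 0.30 (adjusted p = 0.00580). The call of JUP was lost without a filter on low counts (1.45, adjusted p = 0.0563). The call of DSC2 was lost when the first or second adherent or the third sphere library was left out. DSG3 had overlapping levels in the 2 shSigma cultures (log2 fold change -0.076, 95% interval -0.31 to 0.15, adjusted p = 0.551), as did DSC3 (0.079, adjusted p = 0.521) and DSG2 (-0.054, adjusted p = 0.459). PKP3 was higher in all sphere libraries but did not pass the test (0.61, adjusted p = 0.177). It was called higher with DESeq2 (0.62, adjusted p = 0.0447) and without the third adherent library (0.32, adjusted p = 0.0204), and lower with the GC offset (-0.24, adjusted p = 0.0315). Each culture comparison shares its libraries with the hairpin comparisons, so their values are given side by side and are not independent.

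Ranked by mean CPM per kb of exon, DSG2 led in every group, from 39.5 to 54.8. PERP and DSP followed in adherent cells and in shCtrl spheres, whereas JUP was next in shSigma spheres at 32.4 ± 1.69. DSG3 stood last in adherent shCtrl cells, where it had no count, and between JUP and PKP3 in adherent shSigma cells at 5.99 ± 0.662, with PKP3 at 4.92 ± 1.86 within the SD. In shSigma spheres DSG3 was at 5.58 ± 0.586 and DSC2 at 5.67 ± 0.308, again within the SD (n = 3). JUP and DSP overlapped within the SD in adherent shSigma cells (12 ± 4.74 and 15.1 ± 1.20) and in shCtrl spheres (29.0 ± 4.29 and 30.0 ± 4.90). In both shCtrl groups the lowest members were PKP1 and DSG3, each below 0.1 CPM per kb.

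The desmosomal cadherin genes lie side by side on chromosome 18, and the cluster did not move as a block. Of the 9 genes in the table from DSC3 to DSG2, 4 (DSC1, DSG1, DSG1-AS1 and DSG4) had at most 3 counts in every library, and the antisense transcript DSCAS had at most 8. DSG3 lies 50.4 kb from the DSG2 start, and DSG2 was lower where DSG3 was present. DSC2 lies -345.2 kb and DSC3 -404.9 kb from the DSG3 start, on the opposite strand. Within 1 Mb of the cluster, 5 flanking genes were tested in both cultures. B4GALT6 fell in adherent shSigma cells (log2 fold change -0.34, adjusted p = 0.00764) and stood at -0.061 in spheres (adjusted p = 0.475). RNF138 likewise fell in adherent cells (-0.41, adjusted p = 0.00373) and stood at -0.093 in spheres (adjusted p = 0.217). TRAPPC8 was higher in shSigma cells, at 0.27 (adjusted p = 0.0236) and 0.33 (adjusted p = 0.000411). GAREM1 rose in spheres (0.19, adjusted p = 0.0411) and stood at -0.017 in adherent culture (adjusted p = 0.873), and RNF125 had 0.16 (adjusted p = 0.171) and -0.12 (adjusted p = 0.199). The lowest count of these 5 in any library was 369. Exons of DSG2 overlap the antisense transcript DSG2-AS1 over 1.96% of their length, and those of PKP2 overlap an unnamed same-strand lncRNA over 4.12%, so a small part of their reads is uncertain.

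**Figure D5:**
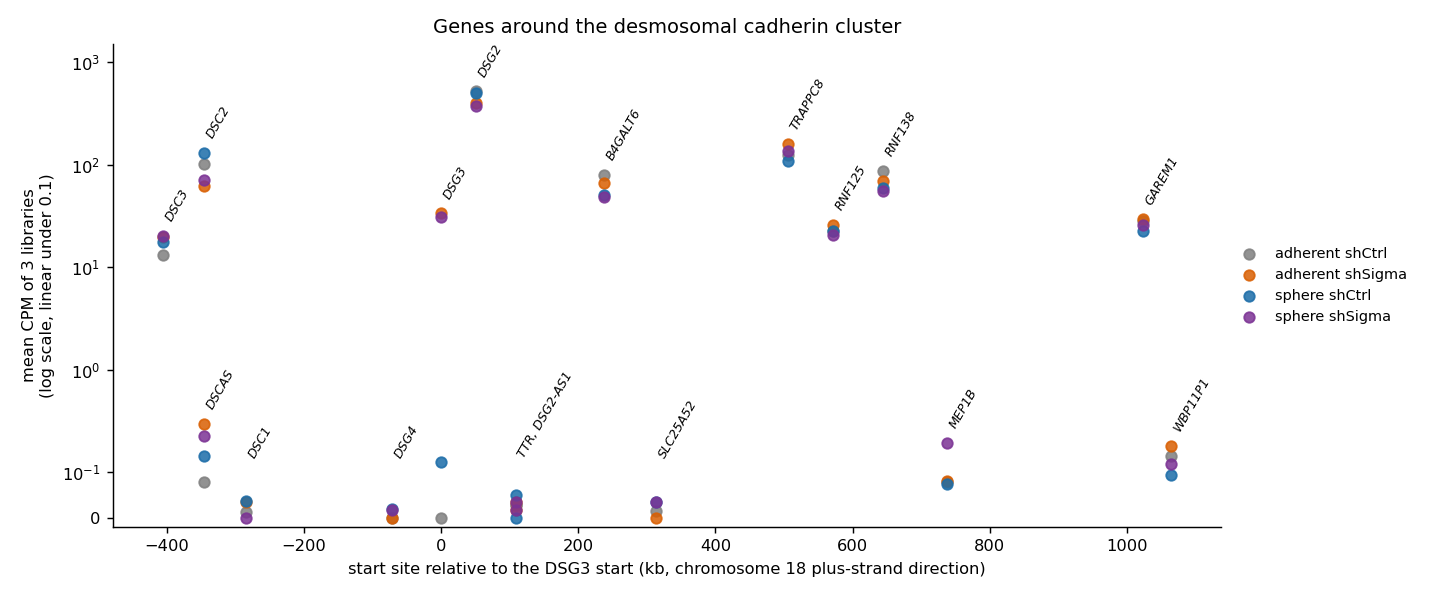
Mean CPM of 3 libraries (vertical axis, log scale, linear below 0.1) of genes around the desmosomal cadherin cluster against the distance of their start from the DSG3 start (kb), with 1 colour per group and genes without any count left out. DSG3 stands at 33.4 and 31.1 CPM in the shSigma groups between DSG4, which had at most 1 count, and DSG2, at 375 to 520.5 CPM.

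Across the 12 libraries, the genes whose log2 CPM followed DSG3 most closely were the pseudogene NMRAL2P (Pearson r = 0.9986), the chromatin organizer SATB1 (r = 0.9981), LINC02266 (r = 0.9966), the peroxisomal membrane gene PXMP4 (r = 0.9966) and the extracellular matrix gene ECM1 (r = 0.9962). ECM1 had 3.65 and 4.8 CPM in the adherent and sphere shCtrl groups and 39.0 and 36.9 CPM in the shSigma groups. In all, 252 genes had r over 0.95, and the 12 points form separate shCtrl and shSigma sets, so r mainly describes that contrast. Among the members, r to DSG3 was 0.96 for PKP1 and 0.754 for DSC3, and -0.939 for DSG2, -0.916 for DSC2 and -0.8 for DSP.

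Other genes tied to desmosomes were few in these cells. Of 8 on a fixed list, 4 were tested. In adherent shSigma cells the plakin PPL rose (log2 fold change 0.58, adjusted p = 0.0361), and PNN, which codes for the nuclear and desmosome-associated protein pinin, fell (-0.71, adjusted p = 0.00107). In shSigma spheres the plakin EVPL (0.52, adjusted p = 0.0161) and the armadillo gene PKP4 (0.50, adjusted p = 5.16e-05) rose, and PPL (-0.60, adjusted p = 0.000221) and PNN (-0.24, adjusted p = 0.0163) fell. The plakin PPL thus moved in opposite directions in the 2 cultures.

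Adherens junction genes, which organise the neighbouring actin-linked junction, were called in both directions. Of 13 genes, 9 were tested besides CDH1, and 3 rose and 2 fell in adherent shSigma cells, against 2 and 3 in spheres. Over all genes tested, 22.3% were called higher and 27.7% lower in adherent cells, and 30.2% and 30.9% in spheres. The counts alone therefore do not set this list apart from other genes. P-cadherin (CDH3) fell from 57.2 ± 6.21 to 32.9 ± 2.56 CPM in adherent cells (SD, n = 3; adjusted p = 0.000455) and from 653 ± 16.7 to 53.9 ± 10.2 CPM in spheres (adjusted p = 1.35e-08). The β-catenin gene CTNNB1 also fell in both cultures (log2 fold changes -0.34 and -0.67, adjusted p = 0.00853 and 8.26e-07). The actin linker VCL rose in both (0.46 and 0.60, adjusted p = 0.000482 and 4.31e-06). CTNND1 rose in adherent cells (0.25, adjusted p = 0.0275) and NECTIN3 in spheres (0.42, adjusted p = 0.000442).

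Keratins, the filaments that desmoplakin holds, were tested for 7 of 15 genes in adherent cells, where 6 rose and none fell. In spheres 9 were tested, and 4 rose and 4 fell. Of all genes tested, 22.3% were called higher and 27.7% lower in adherent cells, and 30.2% and 30.9% in spheres. KRT19 rose from 92.7 ± 30.4 to 359 ± 119.8 CPM (SD, n = 3; adjusted p = 0.00573) and KRT81 by 2.10 on the log2 scale (adjusted p = 0.000794) in adherent cells. In spheres KRT16 (1.35, adjusted p = 0.00164) and KRT81 (0.66, adjusted p = 0.0388) rose, while KRT15 (-1.11, adjusted p = 1.77e-06) and KRT4 (-3.32, adjusted p = 4.85e-06) fell. Keratin genes have close copies, and how reads with several alignments were counted is not stated, so the values of KRT16 and KRT81 are uncertain. The adherent libraries also differed in their trend with gene GC content. Values with the GC offset are given for the members only, so how the keratin calls depend on GC content is not shown. Of 16 squamous differentiation genes, 15 were in the table, and 10 or 11 of these had at most 3 counts in every library of a group. Only 4 were tested in adherent cells and 3 in spheres, and 1 rose and none fell in each culture. The cornified envelope gene IVL was at least 12.5-fold higher in adherent shSigma cells at 1.5 ± 0.109 CPM (adjusted p = 8.02e-05), and CNFN rose in spheres (0.66, adjusted p = 0.00770). IVL passed the filter on low counts only through the adherent shSigma libraries, so its call there is a description and not support. The summed level of the list ranged from 27.1 to 30.3 CPM in adherent shCtrl and from 28.8 to 30.1 CPM in adherent shSigma libraries. In tumor spheres the sums were 36.1 to 42.6 CPM in shCtrl and 36.6 to 46.0 CPM in shSigma libraries. Most of each sum came from KRT10, named after its values were seen, with means of 25.5 and 24.6 CPM in adherent shCtrl and shSigma cells and 32.8 and 32.1 CPM in the corresponding spheres.

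Of 23 transcription factors of epithelial and mesenchymal states, 16 were tested in adherent cells, with 6 higher and 6 lower, and 17 in spheres, with 5 higher and 10 lower. The shares of all genes called higher and lower were 22.3% and 27.7% in adherent cells and 30.2% and 30.9% in spheres. ZEB1, a repressor of epithelial genes that binds E-boxes, rose from 1.72 ± 0.372 to 29.1 ± 1.42 CPM in shSigma spheres (SD, n = 3; log2 fold change 4.07, adjusted p = 5.45e-10). In adherent shCtrl cells ZEB1 had 22.0 ± 0.790 CPM. Between the shCtrl cultures it was lower in spheres (log2 fold change -3.67, adjusted p = 1.61e-06). Its relative ZEB2 rose in both cultures (1.14 and 4.59, adjusted p = 0.00071 and 1.44e-08). GRHL2, an activator of epithelial junction genes, was at the floor in shSigma cells of both cultures, which makes it at least 7.43-fold lower than in adherent control cells (adjusted p = 9.42e-05). Against control spheres it was at least 226-fold lower (adjusted p = 1.29e-11). From adherent culture to spheres in shCtrl cells, GRHL2 rose (5.01, adjusted p = 1.08e-07) and ZEB2 fell (-3.36, adjusted p = 3.39e-05). ELF3 rose in adherent cells (1.68, adjusted p = 0.000103), OVOL2 fell there (-2.10, adjusted p = 0.000953), and OVOL1 was at least 4.70-fold lower in spheres (adjusted p = 8.12e-05). GRHL2 in both cultures and OVOL1 in spheres passed the filter on low counts only through the shCtrl libraries. These calls between the hairpins are therefore descriptions. Of the 12 epithelial identity genes, 11 were tested between the hairpins besides CDH1, with 5 higher and 4 lower in adherent cells and 3 higher and 7 lower in spheres. The same shares of all genes apply to this list. The splicing factor ESRP1 (-4.94 and -5.86, adjusted p = 1.97e-06 and 8.36e-12) and the claudin CLDN7 (-4.06 and -4.48, adjusted p = 8.16e-06 and 1.68e-12) fell in both cultures. CLDN4 rose in adherent cells (3.69, adjusted p = 8.11e-06) and CLDN3 in spheres (1.30, adjusted p = 0.00210). The summed level of the 12 genes was 1063 to 1168 CPM in adherent shCtrl and 1416 to 1733 CPM in adherent shSigma libraries. In tumor spheres it was 2967 to 3061 CPM in shCtrl and 1644 to 1861 CPM in shSigma libraries, below every control sphere library. CDH1, used in the choice of the set, is part of these sums, with means of 727 and 27.8 CPM in shCtrl and shSigma spheres. The gap between the sphere sums was thus partly set by that choice.

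Markers of other cell types stayed low. Of 20 immune, endothelial, fibroblast, neuroendocrine and luminal prostate genes, 11 to 14 had at most 3 counts in every library of a group, and PTPRC, LUM, CHGA and INSM1 were at or near 0. The sums ranged from 22.8 to 28.5 CPM in adherent shCtrl, from 27.4 to 30.3 CPM in adherent shSigma, from 31.4 to 37.2 CPM in sphere shCtrl and from 26.4 to 31.2 CPM in sphere shSigma libraries. COL1A1, COL1A2, SYP and ACTA2 were among the genes above 1 CPM in any group. COL1A2 fell in both cultures (log2 fold changes -3.14 and -4.06, adjusted p = 0.00017 and 2.16e-05). In adherent cells ACTA2 rose (1.12, adjusted p = 0.0102) and SYP fell (-1.43, adjusted p = 0.000409), and in spheres COL1A1 fell (-0.92, adjusted p = 0.000434). Their part in the levels of the desmosome genes was not tested.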

How the data were processed

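Polyadenylated RNA of 12 DU145 libraries was sequenced, 3 libraries per group described as independent replicates. The authors made directional libraries, aligned single-end reads with STAR 2.6.1c to GRCh38.p12 (hg38) per the submitters' processing notes, and deposited raw counts per gene without normalization. The gene annotation, the strand setting and the handling of reads with several alignments are not given in the sources used here. The authors tested their counts with DESeq2. Of 28747 gene identifiers, 26153 matched a symbol in GENCODE 44.

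From the deposited counts, CPM with TMM scaling and log2 fold changes were computed with edgeR 4.0.16 in R 4.3.3. filterByExpr (minimum count 10) removed low genes, and robust quasi-likelihood tests, two-sided, were adjusted by Benjamini-Hochberg over all genes tested. Calls needed an adjusted p under 0.05. Each pair of groups was fitted on its own, and the difference between cultures in 1 fit of 12 libraries. Groups with at most 3 counts in every library were set to that floor, and folds against them are lower bounds. A gene at the floor in 1 group passed the filter only through other groups. Floors cover counting error only. Likeness to DSG3 used log2 (CPM + 0.5). Exon lengths and GC content came from GENCODE 44, and promoters from RefSeq (250 bases upstream of the start). Alternatives were DESeq2 1.42.0, its size factors, upper-quartile scaling, other filters, a replicate block, 1 fit of all libraries, leaving out each library and, added after the data were seen, a GC offset per library and leaving out 2 adherent libraries.

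The members and gene lists were chosen with earlier results of these data known. All members and CDH1 were named. From the other lists, the 2 highest and 2 lowest called genes per culture were named, with markers of other cell types over 1 CPM, the genes in and within 1 Mb of the chromosome 18 cluster, and the 5 genes most like DSG3. Some items that this rule covers, the check of the targeted gene among them, are not reported here. On simulated counts with 200 changed genes, the tests recovered 173 in adherent cells, 197 in tumor spheres, 185 and 192 in the culture comparisons in shCtrl and shSigma cells, and 163 in the interaction, with 13 to 21 false calls. Replicates differed by more than sampling noise in every pair (chi-square per gene 2.73 to 43.9).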

Additional observations from a re-analysis of the deposited data

Results flagged for a closer look

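The effect of the hairpin differed between tumor spheres and adherent cells for 20 of the members and other genes reported here (adjusted p under 0.05). This interaction was tested in 1 fit of all 12 libraries, where 28.4% of all genes were called. Most of the other genes were named as the highest or lowest called in 1 culture, a choice that favours such a difference. The number 20 can therefore not be compared with that share. Results with the GC offset are given for the members only. The values are differences of log2 fold changes, spheres minus adherent cells. Genes at the floor of 3 counts in any group were left out, since their fitted values depend on the prior count. Among the members they were PKP2 -0.61, DSP -1.15 and PERP -0.98, all with a more negative effect of the hairpin in spheres. Other desmosome genes were PPL -1.23, PNN 0.40 and PKP4 0.49, and adherens junction genes were CDH3 -2.80 and CTNNB1 -0.39. Keratins were KRT81 -1.49, KRT19 -1.82, KRT4 -4.58 and KRT15 -1.5. Transcription factors were ELF3 -2.27, ZEB2 3.39, OVOL2 -1.61 and ZEB1 3.57. Epithelial identity genes were CLDN4 -2.78 and ESRP1 -0.98. Markers of other cell types were ACTA2 -1.52 and SYP 1.05. KRT4 had under 2 CPM in every group, so its value rests on few counts.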

How the results depend on the processing

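Of 735 values of single members under an alternative, 667 kept their direction and their side of the threshold, 29 lost the call, 18 gained one and 21 changed sign. When an absolute log2 fold change over 1 was required as well, the members called were 1 in adherent cells (PKP1) and 4 in tumor spheres between the hairpins, 3 in shCtrl and 2 in shSigma cells between the cultures, and 1 in the interaction (DSP). With the GC offset, the interaction count was 7. Leaving out 1 library gave 5 to 7 calls between the hairpins in adherent cells, 6 to 7 in spheres, 5 to 7 in each culture comparison and 3 to 3 in the interaction. PKP1 was not tested where at least 10 counts were required in every library.

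The changes of sign were in values that had not passed the test. With the GC offset they were PKP3 at -0.19 in adherent cells and -0.24 between the cultures in shSigma cells, JUP at -0.076 between the hairpins in spheres, DSG2 at 0.10 and 0.056 between the cultures in shCtrl and shSigma cells, and DSG3 at 0.029 between the cultures in shSigma cells. DSG3 stood at 0.013 there without the first sphere library, and leaving out 1 library gave it -0.13 to 0.013. The interaction of DSG2 (-0.019) was 0.023 with DESeq2, 0.023 with its size factors, 0.065 without a filter, 0.046 with at least 10 counts in every library and 0.039 without both adherent libraries low in GC-rich genes. Leaving out 1 library gave it -0.033 to 0.12, with 0.014, 0.0042 and 0.056 for adherent shCtrl replicates 1 to 3, 0.12 for adherent shSigma replicate 3, 0.033 and 0.011 for sphere shSigma replicates 1 and 2, and 0.025, 0.015 and 0.02 for sphere shCtrl replicates 1 to 3. Apart from the GC offset, the cause of these changes was not tested.

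Replicate numbers did not pair the libraries, since deviations of libraries with the same number correlated from -0.817 to 0.379, and 0, 1, 1 and 3 of 6 libraries correlated best with their own number in the 4 comparisons. With the replicate block the counts of calls were 6, 6, 7, 6 and 3, as without it. No scaling shifted the median of all genes by more than 0.055 on the log2 scale. Depth limits DSG3 and PKP1 in shCtrl cells, where at most 7 counts were read per library.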
